A study of Mus musculus with 26 samples.

Results

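The genes described here are 35 mouse genes of glycolysis, lactate handling and the response to low oxygen, taken by symbol from a list that runs from glucose uptake to the oxygen-sensing hydroxylases, out of 54146 genes in the count files. All 35 were found, 33 had enough counts to be tested, and Eno2 and Pdk4 did not pass the low-count filter. The libraries come from cells of a mouse acute myeloid leukemia model, made by transducing lineage-negative bone marrow with a retrovirus for MLL-AF9 (MA9), a fusion oncogene of human leukemias. The MA9+SETDB1 cells also received SETDB1, a methyltransferase that acts on lysine 9 of histone H3, and the MA9+EV cells received the empty puromycin-resistance vector (EV), so both arms carry MLL-AF9. Cultures were kept for 8 to 12 weeks in medium with IL-3 and SCF, with puromycin selection for 3 to 6 weeks, and polyadenylated RNA was sequenced from 3 libraries per arm. The labels call the libraries biological replicates without saying whether they came from separate transductions, so the p-values measure only the spread between these libraries, which may be in part technical. They also do not name the species of the introduced SETDB1 sequence.

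Glycolysis turns glucose into pyruvate in the cytosol. Pyruvate is then either reduced to lactate and exported or taken into mitochondria, where the pyruvate dehydrogenase complex, which PDK kinases switch off, commits it to the citric acid cycle. Many of these genes are activated in low oxygen by HIF-1, a pair of proteins whose alpha subunit (Hif1a) is marked for destruction by the prolyl hydroxylases Egln1 and Egln3 when oxygen is present. HIF-1 binds DNA at a short core, ACGTG or GCGTG, and Egln3 and several of the enzyme genes are themselves known HIF targets.

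Gene counts summed to between 18070482 and 22561757 per library. Setdb1 stood at 475, 605 and 607 CPM (counts scaled to the effective size of the library) in MA9+SETDB1 replicates 1, 2 and 3, against 105, 108 and 109 CPM in MA9+EV replicates 1, 2 and 3. Replicate 1 stood apart in each arm. The chi-square of counts per degree of freedom, which is 1 for sampling noise alone, was 3.19 between MA9+SETDB1 replicates 2 and 3 and 4.38 between MA9+EV replicates 2 and 3, but 80.5 to 105 in every pair with replicate 1. Blood lineage markers also differed between the arms. The 10 mast cell and basophil markers (9 called higher, Kit lower) summed to 11094 to 11616 CPM in MA9+SETDB1, against 162 to 203 CPM in MA9+EV, where Tpsb2 was at 0. The 12 erythroid markers summed to 2941 to 3126 CPM in MA9+SETDB1 and to 928 to 955 CPM in MA9+EV, where nearly all of the sum was Tfrc, the transferrin receptor gene, which was not called. The other 11 were all called higher and summed to 1875 to 2029 CPM in MA9+SETDB1 and to 0.826 to 1.71 CPM in MA9+EV, with Alas2 and Slc4a1 at 0 there. The 12 neutrophil and granule markers summed to 47.6 to 129 CPM in MA9+SETDB1 and to 14292 to 18778 CPM in MA9+EV, and 11 of them were called lower. The 10 monocyte and macrophage markers summed to 792 to 1807 CPM in MA9+SETDB1 and 2472 to 4238 CPM in MA9+EV, with 6 of 9 tested called lower and 3 (Csf1r, Adgre1 and Cd68) higher. B, T and NK cell markers were low, at 26.2 to 48.6 CPM in MA9+SETDB1 and 18.8 to 28.3 CPM in MA9+EV, with 7 of 10 at 0 in either arm. In bulk RNA a different share of cells and a different amount of RNA per cell cannot be told apart, and the part of these lineage markers in the results on the metabolic genes was not tested.

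The promoters of 4 members are shown because their values lay in different directions while all hold the HIF core. Egln1 and Egln3 were lower in MA9+SETDB1, Pdk3 was higher, and Bnip3 was called higher with replicate numbers as a block but not without it or with replicates 2 and 3 summed. Each sequence covers the 250 bases before the RefSeq start site (GRCm38.p6), read 5′ to 3′ in the direction of the gene, and capitals mark the core ACGTG or GCGTG on either strand (CACGT or CACGC where it lies on the other strand).
Egln1 (chr8:124949255-124949504, minus strand): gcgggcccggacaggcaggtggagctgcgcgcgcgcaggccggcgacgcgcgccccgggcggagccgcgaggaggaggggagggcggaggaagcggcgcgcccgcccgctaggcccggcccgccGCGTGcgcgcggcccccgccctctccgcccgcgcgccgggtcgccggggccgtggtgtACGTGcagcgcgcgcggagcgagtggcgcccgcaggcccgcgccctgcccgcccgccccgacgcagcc
Egln3 (chr12:54203875-54204124, minus strand): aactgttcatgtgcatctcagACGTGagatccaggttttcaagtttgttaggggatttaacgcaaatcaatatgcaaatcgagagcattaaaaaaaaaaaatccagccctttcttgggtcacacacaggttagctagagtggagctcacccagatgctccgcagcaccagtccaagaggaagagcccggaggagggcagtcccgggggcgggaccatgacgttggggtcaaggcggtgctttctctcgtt
Bnip3 (chr7:138909507-138909756, minus strand): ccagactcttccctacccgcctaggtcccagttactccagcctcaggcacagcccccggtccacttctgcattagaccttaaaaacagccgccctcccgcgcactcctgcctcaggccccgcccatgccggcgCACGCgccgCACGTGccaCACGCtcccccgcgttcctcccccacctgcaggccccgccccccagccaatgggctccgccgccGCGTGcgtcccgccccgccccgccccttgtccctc
Pdk3 (chrX:93832151-93832400, minus strand): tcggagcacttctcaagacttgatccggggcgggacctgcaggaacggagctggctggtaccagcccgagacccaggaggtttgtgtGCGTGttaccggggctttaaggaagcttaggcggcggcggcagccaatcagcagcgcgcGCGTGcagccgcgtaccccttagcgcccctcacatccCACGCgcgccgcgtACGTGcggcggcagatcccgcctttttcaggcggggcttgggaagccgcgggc
The Egln1 stretch holds 2 cores, Egln3 1, Bnip3 4 and Pdk3 4, counting overlapping matches once (the palindrome CACGTG, also an E-box, is read on both strands). Over windows of 300 bases (250 before and 50 after a start), 39 of 48 promoters of the 34 matched members held a core (81.2%), against 14380 of 32851 promoters in the whole table (43.8%). The core contains CG, and members' promoters had a median of 20 CG pairs against 7 in the table. Among promoters with 12 to 25 CG pairs (the members' lower and upper quartiles), 25 of 29 member promoters (86.2%) and 65.8% of 7463 in the table held a core. A match is a string of letters and does not show binding.

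Both glucose transporter genes and the hexokinase genes Hk1 and Hk2 rose in MA9+SETDB1, while the myeloid hexokinase Hk3 nearly disappeared. Of the kinases of pyruvate dehydrogenase, Pdk3 rose and Pdk1 fell. The hydroxylase genes Egln1 and Egln3 fell, and most genes of the middle and lower glycolytic steps did not pass the test. With edgeR's quasi-likelihood test and Benjamini-Hochberg adjustment over 12986 genes, 9 of the 33 tested members were higher and 7 lower at an adjusted p under 0.05, and 17 did not pass. The same rule called 53.5% of all tested genes, 27.4% higher and 26.2% lower, so the members' counts were close to the background. The members' median log2 fold change was 0.39, against -0.01 over all tested genes. When the replicate number was added as a block, 15 members were higher and 8 lower, with all 16 calls of the unblocked fit kept, where 29.2% of all tested genes were called higher and 29.0% lower. None of the 7 calls gained with the block passed when replicates 2 and 3, which differed little, were summed within each arm (edgeR adjusted p between 0.181 and 0.571). That summed fit had no block and fewer columns of counts. These 7 genes had not passed the unblocked fit either, so the summed fit cannot decide on the blocked call of any of them. The arms did not overlap for 19 members, 12 with MA9+SETDB1 above and 7 with it below, where 64.6% of all tested genes showed no overlap. Summed over the members, levels were 12797, 17847 and 17775 CPM in MA9+SETDB1 replicates 1, 2 and 3, against 9774, 15742 and 14775 CPM in MA9+EV replicates 1, 2 and 3. The sums overlapped between arms, and replicate 1 was the lowest of its arm in both.

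**Figure D1:**
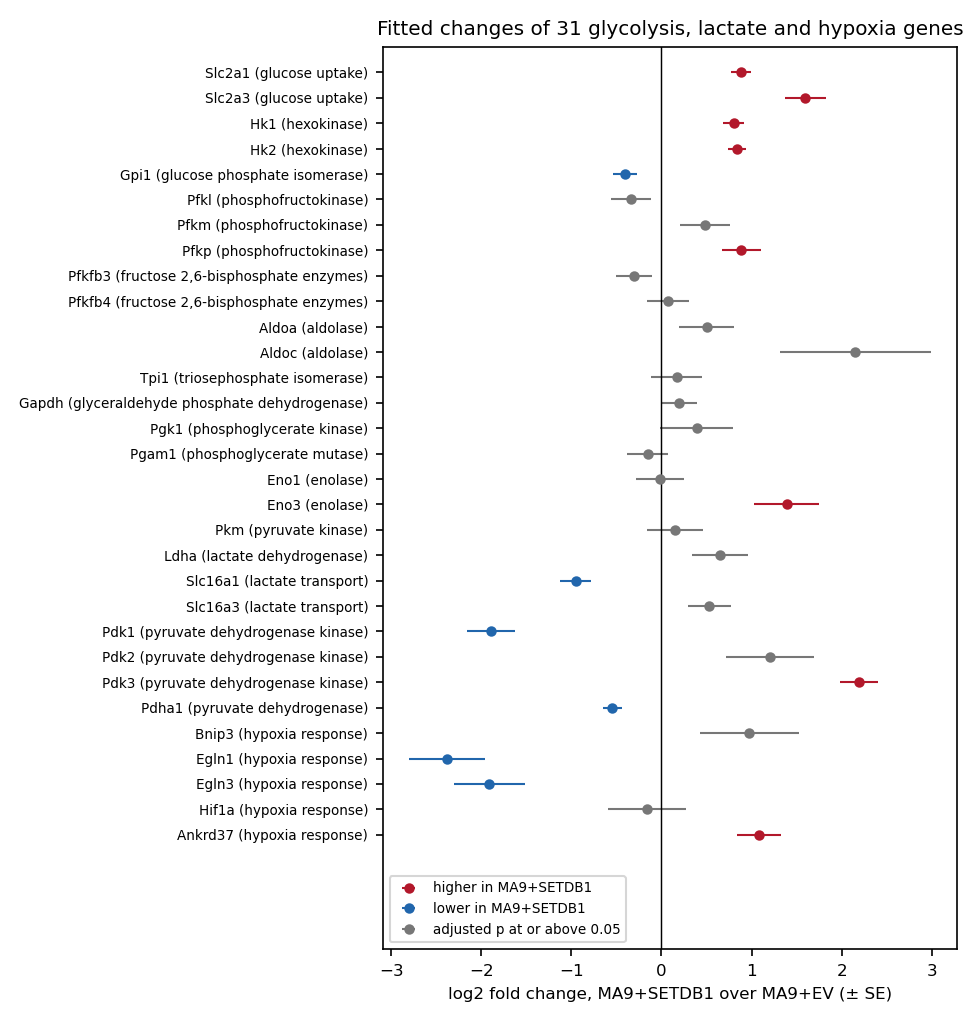
Fitted log2 fold changes (x axis, MA9+SETDB1 over MA9+EV, bars ± SE, 3 libraries per arm) of 31 members in the order of the pathway, coloured by edgeR call. Hk3 (-8.65) and Ldhb (no counts in MA9+EV) are off this scale and left out; Pdk3 (2.19) and Aldoc (2.15, not called) lie furthest right, and Egln1 (-2.38), Egln3 (-1.91) and Pdk1 (-1.89) furthest left.

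Both glucose transporter genes rose. Slc2a1 (ENSMUSG00000028645.11, GRCm38 chromosome 4, 119108745 to 119137330) encodes GLUT1, the widespread basal transporter, and had 220.0, 204 and 206 CPM in MA9+SETDB1 replicates 1, 2 and 3, against 103, 125 and 113 CPM in MA9+EV. Slc2a3, which encodes the high-affinity transporter GLUT3, had 307, 412 and 394 CPM in MA9+SETDB1 and 86.0, 143 and 139.6 CPM in MA9+EV. Neither gene overlapped between the arms. The fitted log2 fold changes were 0.88 for Slc2a1 (SE 0.11, adjusted p = 0.000631 by edgeR) and 1.59 for Slc2a3 (SE 0.23, adjusted p = 0.00122 by edgeR). Within each library the count ratio of Slc2a3 to Slc2a1 was 1.40, 2.02 and 1.91 in MA9+SETDB1, against 0.833, 1.14 and 1.23 in MA9+EV. Such a ratio does not depend on library scaling, but it carries the lengths of both transcripts, so only its change between arms can be read.

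The hexokinases, which trap glucose in the cell as glucose 6-phosphate, divided. Hk1 rose, with 608, 522 and 517 CPM in MA9+SETDB1 and 296, 326 and 324 CPM in MA9+EV (log2 fold change 0.80 with SE 0.12, adjusted p = 0.00138 by edgeR). Hk2, the inducible form, rose by nearly the same factor, with 317, 308 and 301 CPM in MA9+SETDB1 and 158, 179.9 and 180.2 CPM in MA9+EV (log2 fold change 0.84 with SE 0.10, adjusted p = 0.000581 by edgeR). The Hk1 to Hk2 count ratio overlapped between the arms, at 1.69 to 1.92 in MA9+SETDB1 and 1.80 to 1.87 in MA9+EV. Hk3 (ENSMUSG00000025877.14, GRCm38 chromosome 13, 55005985 to 55021475), a hexokinase known from myeloid cells, was nearly absent from MA9+SETDB1. Its levels there were 1.85, 1.03 and 0.416 CPM, against 521, 406 and 393 CPM in MA9+EV. The fitted log2 fold change of Hk3 was -8.65 (SE 0.46, adjusted p = 1.94e-05 by edgeR), the furthest from 0 among the members, and -9.26 without MA9+SETDB1 replicate 1. Because Hk3 was abundant in MA9+EV alone, its test passed the low-count filter through that arm. Neutrophil and granule markers were low in the same libraries (47.6 to 129 CPM in sum), and their part in this result was not tested.

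At the isomerase and phosphofructokinase steps Gpi1 fell and Pfkp rose. Gpi1, which interconverts glucose and fructose 6-phosphate, had 1020.4, 1222 and 1197 CPM in MA9+SETDB1 and 1559.8, 1489 and 1497 CPM in MA9+EV. It fell by 0.40 on the log2 scale (SE 0.13, adjusted p = 0.0371 by edgeR), a call that was lost without replicate 2 or without replicate 3 of either arm (0.0787 to 0.0967), without a low-count filter (0.0509) and when replicates 2 and 3 were added together within each arm (0.249). Phosphofructokinase, the main control point of glycolysis, has a liver (Pfkl), muscle (Pfkm) and platelet (Pfkp) form. Pfkp rose, with 687, 803 and 785 CPM in MA9+SETDB1 and 284, 472 and 475 CPM in MA9+EV (log2 fold change 0.89 with SE 0.22, adjusted p = 0.0123 by edgeR, and 0.0743 with replicates 2 and 3 summed). Pfkl had 261, 172 and 167 CPM in MA9+SETDB1 and 198, 289 and 271 CPM in MA9+EV, with replicate 1 the highest of MA9+SETDB1 and the lowest of MA9+EV, so that the arms overlapped. Its log2 fold change of -0.34 did not pass (edgeR adjusted p = 0.245), nor did that of Pfkm, 0.49 (edgeR adjusted p = 0.183). The Pfkp to Pfkl count ratio was 2.63, 4.66 and 4.70 in MA9+SETDB1 and 1.43, 1.63 and 1.75 in MA9+EV, with no overlap. Pfkfb3 and Pfkfb4 make fructose 2,6-bisphosphate, which activates phosphofructokinase, and had log2 fold changes of -0.30 and 0.07 (edgeR adjusted p = 0.238 and 0.811). With the replicate block Pfkfb3 passed as lower (log2 fold change -0.32, edgeR adjusted p = 0.0436), but not with replicates 2 and 3 summed (0.527). Without MA9+SETDB1 replicate 1, both Pfkl (-0.56, edgeR adjusted p = 0.0297) and Pfkfb3 (-0.53, edgeR adjusted p = 0.0144) passed as lower.

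**Figure D2:**
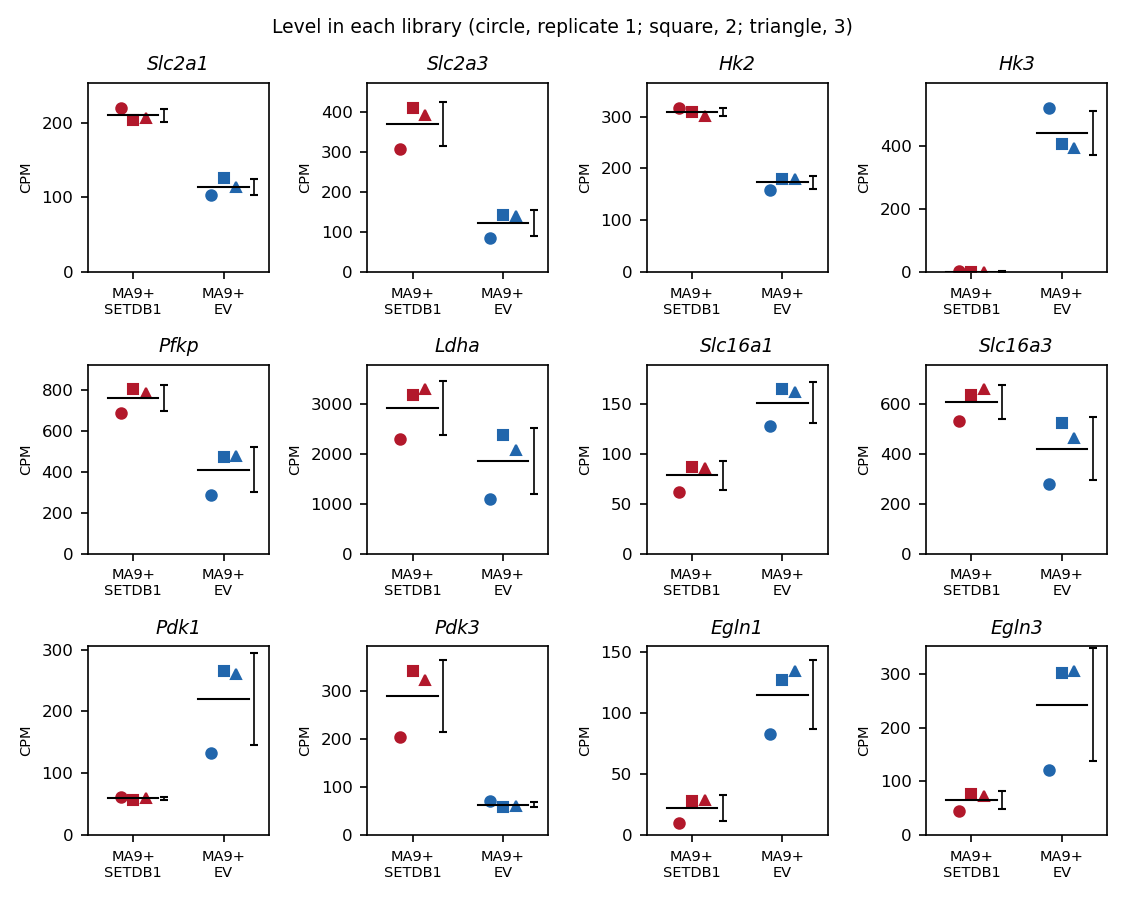
Level in CPM (y axis from 0) of 12 members in each MA9+SETDB1 (red) and MA9+EV (blue) library, with the mean (line) and SD (bar, n = 3). Hk3, Slc16a1, Pdk1, Egln1 and Egln3 lie lower in MA9+SETDB1, the transporters Slc2a1 and Slc2a3, Hk2, Pfkp, Pdk3 and Slc16a3 higher, and Ldha overlaps, with replicate 1 (circle) lowest in both arms.

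The aldolase genes cleave fructose 1,6-bisphosphate. Aldoa, the ubiquitous form, had 2409, 3804 and 3752 CPM in MA9+SETDB1 and 1486, 2911 and 2645 CPM in MA9+EV. Aldoc, the form best known from brain, had 137, 394 and 403 CPM in MA9+SETDB1 and 9.66, 105 and 95.2 CPM in MA9+EV. For both genes replicate 1 was far below replicates 2 and 3 in each arm. Their log2 fold changes of 0.50 and 2.15 did not pass without the block (edgeR adjusted p = 0.208 for Aldoa and 0.0666 for Aldoc), and passed with it (0.53 and 2.55, edgeR adjusted p = 0.0307 and 0.00601), but not with replicates 2 and 3 summed (0.429 and 0.181). The Aldoc call also passed without MA9+SETDB1 replicate 1 (0.0444) or MA9+EV replicate 1 (0.0376). A second identifier with the symbol Aldoa held 46 counts over MA9+SETDB1 and 13 over MA9+EV and was not tested.

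The enzymes from triosephosphate to pyruvate gave few calls. Tpi1, Gapdh, Pgk1, Pgam1, Eno1 and Pkm had log2 fold changes of 0.17, 0.20, 0.39, -0.15, -0.02 and 0.15, and none passed (edgeR adjusted p between 0.420 and 0.967). Gapdh, a gene often taken as constant, was counted at 21.7, 27.5 and 26.6 CPM in MA9+SETDB1 and 17.0, 23.8 and 25.4 CPM in MA9+EV. Pgk1 had 80.5, 146 and 142 CPM in MA9+SETDB1 and 45.8, 129.9 and 106 CPM in MA9+EV, and was the 1 gene of these 6 to pass with the block (log2 fold change 0.47, edgeR adjusted p = 0.0398, and 0.571 with replicates 2 and 3 summed). Aldoa, Gapdh, Pgk1, Pgam1 and Ldha each share the annotation with 2 or 3 genes named as their pseudogenes or related sequences. Reads aligned to more than 1 place took 18.4% to 20.2% of all entries per library and are in no gene's count, so the levels of these 5 genes are uncertain. Of copies under other kinds of name only Eno1b, named after Eno1, was looked up. It held 25 counts over MA9+SETDB1 and 37 over MA9+EV. No wider search was made, so Eno1 and other members may be affected too. Of the other enolases, Eno3, the muscle form, rose, with 10.1, 8.64 and 10.4 CPM in MA9+SETDB1 and 2.02, 3.90 and 5.24 CPM in MA9+EV (log2 fold change 1.39 with SE 0.36, adjusted p = 0.0151 by edgeR, and 0.0721 with replicates 2 and 3 summed). Eno2, the neuronal form, had 26 counts over the MA9+SETDB1 libraries and 0 over MA9+EV and was not tested.

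Of the lactate genes, the transporter Slc16a1 fell and the barely detected Ldhb rose. Ldha, which reduces pyruvate to lactate, had 2299, 3182 and 3309 CPM in MA9+SETDB1 and 1107, 2390.5 and 2092 CPM in MA9+EV, with overlap. Its log2 fold change of 0.65 did not pass (SE 0.31, adjusted p = 0.117 by edgeR) but did with the block (0.71, edgeR adjusted p = 0.0225), and not with replicates 2 and 3 summed (0.287). Ldhb, the heart form, was barely detected, with 0.783, 0.670 and 0.727 CPM in MA9+SETDB1 and 0 counts in MA9+EV. It was called higher (edgeR adjusted p = 0.00121), having passed the filter through MA9+SETDB1 alone, and was at least 16.5-fold higher when 3 counts summed over MA9+EV are taken as the floor. Slc16a1, which encodes the lactate transporter MCT1, fell, with 61.5, 86.9 and 86.2 CPM in MA9+SETDB1 and 128, 165 and 162 CPM in MA9+EV (log2 fold change -0.95 with SE 0.17, adjusted p = 0.00357 by edgeR). Slc16a3, which encodes MCT4, the exporter of strongly glycolytic cells and a HIF target, had 529.8, 634 and 658 CPM in MA9+SETDB1 and 278, 521 and 461 CPM in MA9+EV. The arms did not overlap for Slc16a3, and its log2 fold change of 0.53 did not pass without the block (edgeR adjusted p = 0.103) and passed with it (0.57, edgeR adjusted p = 0.0277), but not with replicates 2 and 3 summed (0.244). The count ratio of Slc16a3 to Slc16a1 was 8.61, 7.29 and 7.63 in MA9+SETDB1 and 2.18, 3.16 and 2.85 in MA9+EV, a mean difference of 1.54 on the log2 scale.

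The kinases of pyruvate dehydrogenase changed in opposite directions. Pdk1 (ENSMUSG00000006494.11, GRCm38 chromosome 2, 71873215 to 71903858), a HIF target, had 61.4, 56.8 and 59.7 CPM in MA9+SETDB1 and 133, 266 and 261 CPM in MA9+EV. It fell by 1.89 on the log2 scale (SE 0.26, adjusted p = 0.00114 by edgeR). Pdk3 (ENSMUSG00000035232.8, GRCm38 chromosome X, 93764616 to 93832150) had 204, 343 and 324 CPM in MA9+SETDB1 and 70.4, 59.4 and 60.6 CPM in MA9+EV, a rise of 2.19 (SE 0.21, adjusted p = 0.000239 by edgeR). The 3 MA9+SETDB1 libraries lay close together for Pdk1, whereas the MA9+EV libraries lay close together for Pdk3. The count ratio of Pdk3 to Pdk1 was 3.32, 6.04 and 5.43 in MA9+SETDB1, against 0.528, 0.223 and 0.232 in MA9+EV, a mean difference of 3.99 on the log2 scale. Of the 11 ratios computed between related members, the Hk3 to Hk2 ratio alone differed more (-9.72). Pdk2 was low, at 5.93, 3.29 and 3.43 CPM in MA9+SETDB1 and 0.785, 2.53 and 2.17 CPM in MA9+EV, and did not pass (log2 fold change 1.21, edgeR adjusted p = 0.0746, against 0.0430 by DESeq2). Pdk4 had 0 counts in MA9+SETDB1 and 1 in MA9+EV. Pdha1, which encodes the E1 alpha subunit that these kinases phosphorylate, had 142, 169 and 160.2 CPM in MA9+SETDB1 and 224, 229 and 235 CPM in MA9+EV, and fell by 0.55 (SE 0.10, adjusted p = 0.00419 by edgeR, and 0.0705 with replicates 2 and 3 summed).

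Among the hypoxia genes the hydroxylase genes Egln1 and Egln3 fell while Hif1a showed no called change. Egln1 (ENSMUSG00000031987.6, GRCm38 chromosome 8, 124908587 to 124949254), which encodes PHD2, the main oxygen-sensing hydroxylase of HIF-1 alpha, had 9.68, 27.6 and 29.0 CPM in MA9+SETDB1 and 82.6, 127 and 135 CPM in MA9+EV. Egln3 (ENSMUSG00000035105.5, GRCm38 chromosome 12, 54178981 to 54203874), which encodes PHD3, had 45.3, 76.7 and 72.5 CPM in MA9+SETDB1 and 121, 302 and 307 CPM in MA9+EV. All MA9+SETDB1 libraries lay below all MA9+EV libraries for both genes. Their log2 fold changes were -2.38 for Egln1 (SE 0.42, adjusted p = 0.00319 by edgeR) and -1.91 for Egln3 (SE 0.39, adjusted p = 0.00568 by edgeR). Hif1a had 128, 432 and 412 CPM in MA9+SETDB1 and 278, 422 and 387 CPM in MA9+EV (log2 fold change -0.16 with SE 0.44, adjusted p = 0.778 by edgeR). These are transcript levels, and HIF-1 alpha is controlled largely as a protein. Bnip3, a mitophagy receptor gene and HIF target, had 118, 211 and 233 CPM in MA9+SETDB1 and 29.0, 135 and 123 CPM in MA9+EV, and passed with the block (log2 fold change 1.19, edgeR adjusted p = 0.0200) but not without it (0.97, edgeR adjusted p = 0.178) or with replicates 2 and 3 summed (0.303). Ankrd37, an ankyrin repeat gene induced by hypoxia, rose, with 11.2, 7.91 and 8.21 CPM in MA9+SETDB1 and 3.88, 5.10 and 3.93 CPM in MA9+EV (log2 fold change 1.08 with SE 0.24, adjusted p = 0.00880 by edgeR, and 0.0809 with replicates 2 and 3 summed). Known HIF targets among the members were thus called in both directions, for example Pdk1 and Egln3 lower and Slc2a1 and Ankrd37 higher. These are examples, and the HIF targets in each direction were not counted.

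Within each arm, many members were lower in replicate 1 than in replicates 2 and 3. Of 32 tested members with counts in every library, 18 (56.2%) were below the mean of replicates 2 and 3 in both arms and 2 (Hk3 and Pfkfb3) above it in both, whereas 33.2% of 12047 tested genes with counts in every library were below it in both and 30.3% above it in both. The median log2 ratio of replicate 1 to that mean was -0.29 in MA9+SETDB1 and -0.69 in MA9+EV over the members, against -0.01 in MA9+SETDB1 and -0.03 in MA9+EV over all tested genes. The ratios were -1.54 and -3.37 for Aldoc, -0.91 and -2.15 for Bnip3, -0.84 and -1.37 for Pgk1, -0.72 and -1.33 for Egln3 and -0.50 and -1.02 for Ldha, giving MA9+SETDB1 and then MA9+EV. In the same order they were -1.72 and -0.54 for Hif1a and -1.55 and -0.67 for Egln1, where the drop was larger in MA9+SETDB1. The 18 members below the mean in both arms include members higher, lower and not called between the arms. The pattern was found by looking at the values, no label describes how replicate 1 differed, and its source was not tested. With replicate 1 of both arms left out, 18 members were higher and 9 lower, in a fit where 39.7% of all genes were called higher and 39.5% lower. That fit measures spread only between replicates 2 and 3, with a chi-square per degree of freedom of 3.19 in MA9+SETDB1 and 4.38 in MA9+EV. This spread may be in part technical, so these calls cannot be read as holding across separate transductions.

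**Figure D3:**
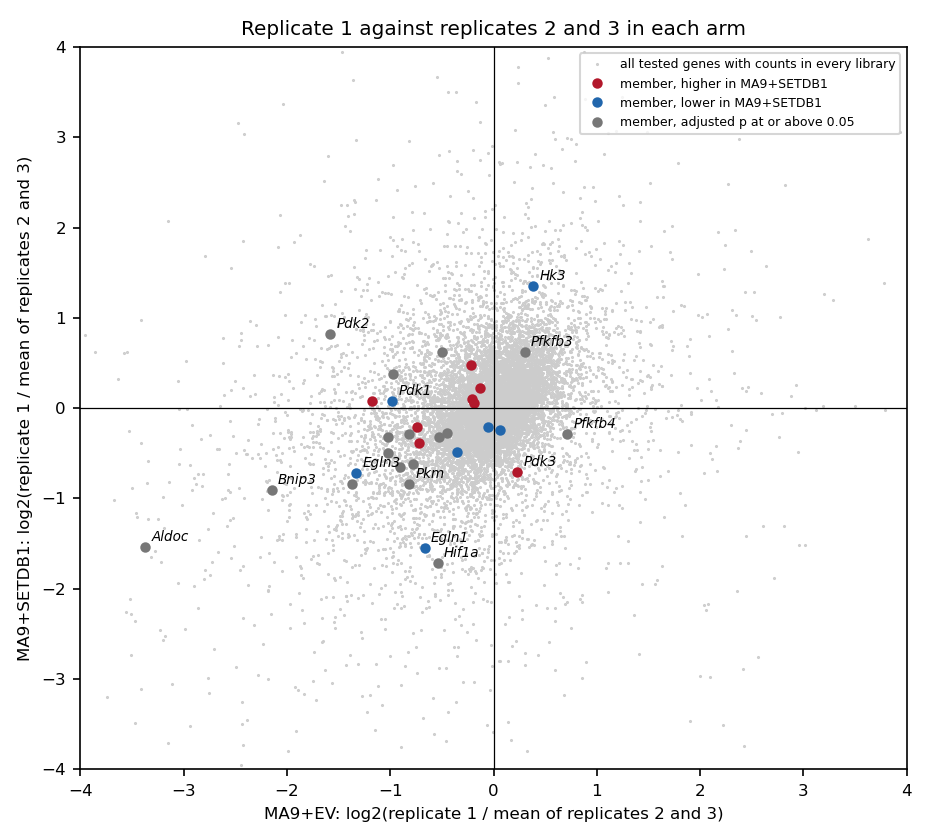
Log2 ratio of replicate 1 to the mean of replicates 2 and 3 in MA9+EV (x axis) and MA9+SETDB1 (y axis), with 32 members coloured by edgeR call and 12047 tested genes in grey (a few lie outside the axes). Of the members, 18 fall at the lower left of the crossed lines, Aldoc and Bnip3 furthest left.

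Neighbouring pathways also gave calls in both directions. Over all tested genes 27.4% were called higher and 26.2% lower, which is the background for each list below. In the pyruvate entry and pyruvate dehydrogenase list, 3 of 9 tested genes were higher and 3 lower (median log2 fold change 0.14). Mpc2, a subunit of the mitochondrial pyruvate carrier, and Pdp1, the phosphatase that reverses PDK action, rose by 1.81 and 0.94 on the log2 scale (edgeR adjusted p = 0.00114 and 0.00168). Pdhb, the E1 beta subunit, and Pdpr, a regulatory subunit of the phosphatase, fell by 0.78 and 1.65 (edgeR adjusted p = 0.000454 and 0.00156). Of 16 citric acid cycle genes 4 were higher and 4 lower (median -0.15), among them Dlst, of the oxoglutarate dehydrogenase complex, at 1.00 and the succinate dehydrogenase subunits Sdhb and Sdhd at 0.72 and -0.94. Of 7 pentose phosphate genes 2 were higher and 4 lower (median -0.39). Pgd, the 6-phosphogluconate dehydrogenase, had 359.6, 315 and 313 CPM in MA9+SETDB1 and 1112, 1179 and 1111 CPM in MA9+EV, a log2 fold change of -1.78 (SE 0.12, adjusted p = 5.04e-05 by edgeR). Taldo1, the transaldolase, moved the other way at 1.51 (edgeR adjusted p = 0.000278).

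The glycogen list had 6 of 13 tested genes lower, 1 higher and a median log2 fold change of -0.60, against -0.01 over all tested genes. Gbe1, the glycogen branching enzyme, had 3.24, 6.76 and 4.78 CPM in MA9+SETDB1 and 161, 368 and 364 CPM in MA9+EV (log2 fold change -5.92 with SE 0.45, adjusted p = 9.02e-05 by edgeR). Phkb and Phka2, subunits of phosphorylase kinase, fell by 1.76 and 1.12, and the phosphorylase gene Pygb rose by 1.06. Of 20 other tested genes of glycolysis and gluconeogenesis, 7 were higher and 7 lower. Tigar, a phosphatase that lowers fructose 2,6-bisphosphate, fell by 2.72 (edgeR adjusted p = 8.23e-05). Ldhc, the testis lactate dehydrogenase, had 32.1, 15.3 and 15.9 CPM in MA9+SETDB1 and 0.165, 0 and 0.101 CPM in MA9+EV. Slc2a6, a glucose transporter family gene, rose by 3.52 (edgeR adjusted p = 0.000168), and Galm, the galactose mutarotase, was not counted in MA9+SETDB1 (0 counts, against 381 in MA9+EV), which is at least 99.8-fold lower with the same kind of floor. Pklr, the pyruvate kinase of liver and red cells, chosen after its values were seen, had 38.0, 8.95 and 8.83 CPM in MA9+SETDB1 and 0 counts in MA9+EV, at least 423-fold higher.

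Of 26 tested HIF regulators and further hypoxia targets, 7 were higher and 8 lower, with a median log2 fold change of -0.19 (9 and 11 with the replicate block). Epas1, which encodes HIF-2 alpha, was at 0 in all MA9+SETDB1 libraries and at 0.743, 0.830 and 1.01 CPM in MA9+EV, a level at least 15.2-fold lower. Rora and Car12 fell by 5.30 and 2.40 on the log2 scale. Egln2, an Egln gene outside the members and chosen after its values were seen, fell by 0.37 (edgeR adjusted p = 0.0273). Vegfa and Ero1l, chosen after their values were seen, were called in opposite directions. Vegfa, the angiogenic factor, had 37.3, 83.7 and 89.1 CPM in MA9+SETDB1 and 143, 235 and 245 CPM in MA9+EV (edgeR adjusted p = 0.0101). Ero1l, an oxidase of protein folding, had 1721, 3925 and 3850.5 CPM in MA9+SETDB1 and 416, 915 and 979 CPM in MA9+EV (edgeR adjusted p = 0.00727). In this list 14 of 24 genes with counts in every library were below the mean of replicates 2 and 3 in replicate 1 of both arms (58.3%). Another 4 were above it in both (16.7%). Over all tested genes with counts in every library, 33.2% were below it in both and 30.3% above.

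Of 7 other tested monocarboxylate transport genes, 2 were higher and 2 lower. Emb, which encodes embigin, a partner protein of MCT transporters, had 452, 315 and 312 CPM in MA9+SETDB1 and 1042, 1141 and 1171 CPM in MA9+EV (log2 fold change -1.64, edgeR adjusted p = 0.000400). Slc16a10, an aromatic amino acid transporter of the same family, rose by 2.07 (edgeR adjusted p = 0.000310). Slc16a7, which encodes MCT2, held no counts (0) in the MA9+SETDB1 libraries against 408 in MA9+EV, a level at least 107-fold lower.

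**Figure D4:**
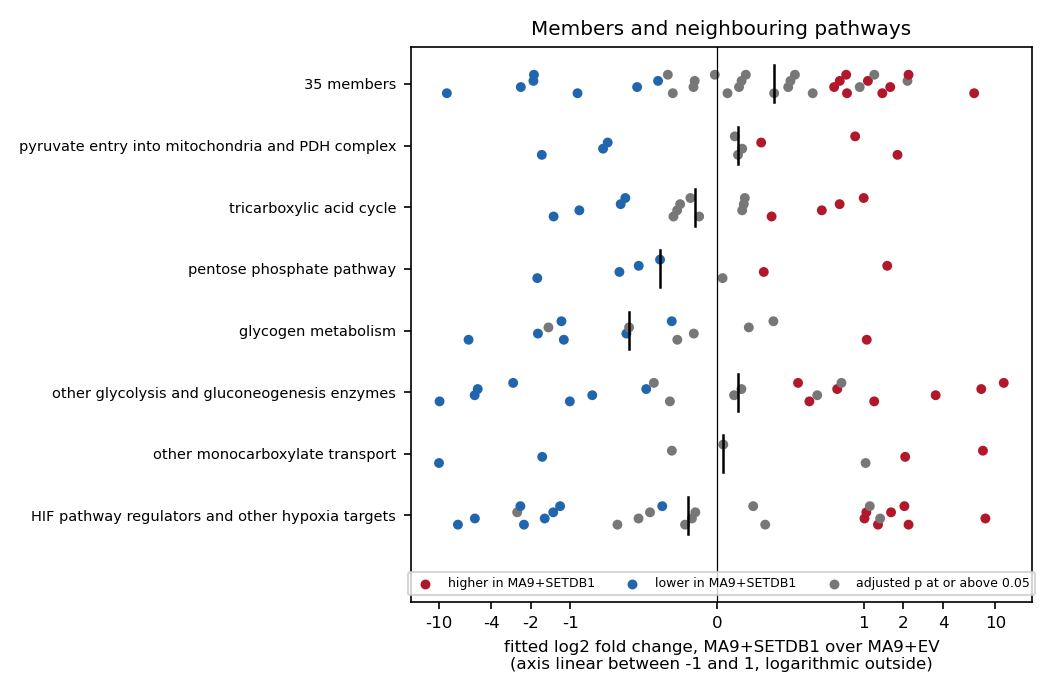
Fitted log2 fold changes (x axis, MA9+SETDB1 over MA9+EV, linear between -1 and 1 and logarithmic outside) of the 33 tested members and of tested genes of 7 neighbouring lists, each point 1 gene coloured by edgeR call and each vertical line the list's median. Every row holds calls on both sides of 0, and the glycogen row has the lowest median (-0.60).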

How the data were processed

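RNA-seq counts were analysed for 3 MA9+SETDB1 and 3 MA9+EV libraries, grouped by sample title. The other 20 of 26 samples were not analysed here. The deposited files hold raw read counts per gene by versioned Ensembl identifier. Per the submitters' processing notes, tools included STAR 2.6.0c and HTSeq 0.11.0 on GRCm38. No label or header states whether counting used strand, so reads of overlapping or antisense genes cannot be told apart. Summary lines (24.6% to 26.3% of entries) were left out. Symbols were matched by versioned identifier (52480) or stable identifier (1599), and 67 stayed unmatched. Transcript lengths were not used here, so the planned isozyme shares per length were replaced by count ratios, and coordinates and promoters are RefSeq GRCm38.p6.

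Genes were filtered with filterByExpr, scaled with TMM and tested with edgeR 4.0.16 (R 4.3.3), after tests on simulated data, with adjustment over 12986 genes and a threshold of 0.05. Standard errors came from the F statistic. A floor of 3 counts equals 0.124 to 0.183 CPM in a library. Bounds cover counting error only. Alternatives were DESeq2 1.42.0, other scalings and filters, libraries left out or summed, and a replicate block. Same-numbered libraries deviated together (correlations 0.236, 0.159 and 0.136 for replicates 1, 2 and 3, all above the 0.1 required). By that rule the replicate number was used as a block in an alternative fit, while the main fit had no block. Replicates 2 and 3 correlated as highly when crossed (0.162 and 0.150). With replicate 1 apart in both arms, deviations from the arm mean move replicates 2 and 3 together. The check therefore cannot tell pairs among replicates 2 and 3 from replicate 1 against the rest. The members and lists were chosen with earlier results of these data known. Named were members, Setdb1, and from each list the 4 tested genes with the smallest p, with exceptions stated; some genes this rule names are not reported here.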

Additional observations from a re-analysis of the deposited data

How the results depend on the processing

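Counts of called members stayed within 1.5 times (9 higher, 7 lower) under DESeq2's test, the other scalings and filters and each left-out library, the last giving 9 to 10 higher and 6 to 9 lower. Of all tested genes, 16.0% to 29.3% were called higher and 14.5% to 29.4% lower under DESeq2's test and those scalings and filters. Across the left-out libraries 22.1% to 30.9% were called higher and 20.1% to 29.7% lower. Replicates 2 and 3 of each arm summed, in a fit without the block, gave 6 higher and 5 lower. In that fit the shares over all tested genes also fell, to 16.4% higher and 13.8% lower. Ldhb was not tested under a filter of 1 CPM in 3 libraries. With the replicate block 15 members were higher, as with replicate 1 against 2 and 3 as a term (15), and 18 with replicates 2 and 3 of each arm only. The last 2 of these were chosen after seeing the data. In the same order, these fits called 29.2%, 33.1% and 39.7% of all tested genes higher. The fit of replicates 2 and 3 only measures spread between libraries that differed little. Over all genes the left-out libraries gave 2992 to 4231 higher and 2727 to 4063 lower. Replicates 2 and 3 summed gave 2292 higher and 1928 lower, and replicates 2 and 3 only gave 5285 lower. The cause was not tested. Members not called in either direction changed sign in places. Over left-out libraries log2 fold changes were -0.24 to 0.18 for Eno1, -0.081 to 0.35 for Pfkfb4, -0.42 to 0.23 for Hif1a, -0.10 to 0.35 for Tpi1, -0.079 to 0.39 for Pkm and -0.29 to 0.11 for Pgam1. Eno1 had 0.0013 with the replicate block and 0.00057 with replicate 1 as a term, Pfkfb4 -0.10 with replicates summed, and Hif1a 0.075 with replicates 2 and 3 only. The block changed no call of a member other than those given beside the results. Sequencing depth limits Ldhb, Eno2 and Pdk4, which had 39, 26 and 0 counts in sum over the MA9+SETDB1 libraries and 0, 0 and 1 over the MA9+EV libraries. Isozyme shares from plain counts were not run, since no shares per length were made.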
